A study of Mus musculus with 36 samples.

Results

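Wnt signalling genes were followed across 9 groups of kidney progenitor cells of the mouse, 6 sorted from the fetal kidney and 3 made from mouse embryonic stem (ES) cells. The genes were taken by symbol from a list of 55 Wnt ligands, receptors, R-spondins, antagonists and feedback targets, and all 55 were among the 22761 genes in the expression table. They comprised 19 ligands, 12 receptors (10 Frizzleds with Lrp5 and Lrp6), 4 R-spondins, 3 R-spondin receptors, 9 secreted antagonists and 8 genes that Wnt signalling itself switches on. Each group held 4 RNA-seq libraries. Nephron progenitors (NP), stromal progenitors (SP) and ureteric bud cells (UB) came from CD1 embryos at E11.5 and at E12.5. A fetal library pooled the kidneys of all embryos of 1 mouse, and was sorted as ITGA8-high, PDGFRA-low cells for NP, as ITGA8-low, PDGFRA-high cells for SP, or by RET and EpCAM for UB. The ES-derived nephron progenitors (iNP) and stromal progenitors (iSP) were sorted with the same ITGA8 and PDGFRA gates from embryoid bodies of the E14 line, and the ES-derived ureteric bud cells (eUB) by EpCAM and mCherry from embryoid bodies of a line labelled Sox9-mCherry (the study also describes a Sox8-mCherry line, and which of them gave these libraries is unsure). An ES-derived library was 1 batch of differentiation. No group carried a targeted loss of a Wnt gene.

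The comparison between ES-derived and fetal cells asked how closely the cultured cells resemble the progenitors they stand in for. The 2 sources also differed in strain and in their medium. Both culture protocols passed through activin A, BMP4, retinoic acid, FGF9, the kinase inhibitor Y27632 and CHIR99021, a small molecule that blocks GSK3 and so switches on canonical Wnt signalling. The eUB protocol further used SB431542 (an inhibitor of activin and TGF-β receptors), Matrigel and GDNF, and its last medium held more CHIR99021 than that of iNP and iSP. The fetal cells went from embryo to sort without these agents. The effects of source, strain, line and CHIR99021 on the genes below cannot be told apart.

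Wnt proteins are secreted, lipid-modified ligands that bind a Frizzled receptor together with LRP5 or LRP6. In the canonical branch this stops the destruction of β-catenin, which enters the nucleus and works with the TCF/LEF factors. R-spondins, through the LGR receptors, hold off the ubiquitin ligases ZNRF3 and RNF43 that remove Frizzleds, and so raise a cell's response to Wnt. Secreted antagonists either bind Wnts themselves (the SFRP family, FRZB, WIF1) or block LRP5 and LRP6 (DKK1), and signalling cells make their own brakes, among them AXIN2, NKD1 and the deacylase NOTUM. In the developing kidney, WNT9B from the ureteric bud acts on the neighbouring mesenchyme, WNT4 drives nephron progenitors to become epithelium, WNT11 is made at bud tips, and WNT7B is made by the stalk of the bud.

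The libraries held 13.0 to 52.5 M reads on genes (median 27.4 M), at which 3 reads equalled 0.0605 to 0.223 normalised CPM, the deposited read counts scaled to library size (CPM) with a correction factor of the study for each library. Values are normalised CPM unless a log2 scale is named, and differences are on the log2(normalised CPM + 1) scale with their standard error (SE). Bulk libraries do not separate fewer cells expressing a gene from less RNA per cell. The sorted types carried their defining genes, Six2 and Itga8 in NP, Foxd1 and Pdgfra in SP, and Ret and Cdh1 in UB, but several departures touch the results below. E12.5 UB replicate 1 held more RNA of mesenchymal genes and less of bud genes, with Six2 at 94.8 against 7.43 to 13.5 in the other 3 libraries and Cdh1 at 381 against 676 to 717. It also held endothelial (sum of 6 genes 103) and pluripotency genes (sum of 4 genes 20.02). Blood and macrophage genes summed to 34.6 to 58.6 in E11.5 UB and 0.223 to 0.515 in eUB, and Foxd1 was at 2.08 to 2.81 and 14.99 to 29.5. The E11.5 SP libraries carried some bud genes (Epcam 10.01 to 23.4, Ret 6.22 to 29.1). iSP held Foxd1, the transcription factor that marks renal stroma, at 11.4 to 19.2 against 265 to 563 in E11.5 SP, while Pdgfra was at 363 to 434 against 337 to 350.5. iNP held Six2 at 116 to 152 against 557 to 641 in E11.5 NP, and replicate 2 of iNP held Itga8 at 75.5 against 209.8 or more in the other 3. E12.5 SP replicate 1 held Pdgfra at 204 against 551 to 622 in the other 3 libraries. E12.5 NP replicate 1 held Eya1, a gene of nephron progenitors, at 165 against 463 to 481 and the bud gene Calb1 at 9.82 against at most 2.53. Samples titled E11.5 UB carry an E12.5 cell source and the reverse; the titles were followed, and the other reading exchanges the 2 UB ages.

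Most of the Wnt genes differed between cultured and fetal cells, as did most of the genes that passed the expression filter. Of the 42 tested in UB, 29 differed between eUB and E11.5 UB (17 higher, 12 lower), 69.0% against 60.5% of all tested genes, of which 32.1% were higher and 28.5% lower. In NP, 37 of 44 differed between iNP and E11.5 NP (27 higher, 10 lower), 84.1% against 64.7% of all genes (35.5% higher, 29.2% lower). Of these 27 higher genes 8 entered the test through iNP alone, with no E11.5 NP library at 1 normalised CPM (Dkk1, Rnf43, Rspo4, Wif1, Wnt1, Wnt16, Wnt3 and Wnt3a), and of the lower ones Wnt6 through E11.5 NP alone, so their calls were fixed by the filter and are given as a description. Without iNP replicate 1, 3 or 4 only 3 iNP libraries remain, such genes drop out, and 16 of 36 were higher. In SP, 35 of 44 differed between iSP and E11.5 SP (11 higher, 24 lower), 79.5% against 67.6% of all genes (35.5% higher, 32.1% lower). There 5 of the 24 lower genes entered through E11.5 SP alone (Sfrp4, Wnt2, Wnt6, Wnt7b and Wnt9b) and Rspo4 through iSP alone. The difference from fetal cells itself differed between eUB and iNP in 40 of 51 Wnt genes (47.1% of all genes), between eUB and iSP in 38 of 50 (47.4%) and between iNP and iSP in 31 of 50 (29.3%). The median difference over the Wnt genes tested was 0.18 in UB, 0.52 in NP and -0.43 in SP, where the median over all genes was 0.025, 0.074 and 0.037. The differences of at least 1 in size numbered 17 in UB, 18 in NP and 21 in SP, where 16.4%, 22.6% and 23.4% of all tested genes differed by as much. Of the 18 in NP, 6 entered through iNP alone and Wnt6 through E11.5 NP alone. Of the 21 in SP, 5 entered through E11.5 SP alone and Rspo4 through iSP alone. Calls rest on limma at an adjusted p under 0.05 (Benjamini-Hochberg over every gene tested). Wnt8a and Sfrp5 were below the expression filter in every comparison, at most 0.602 and 1.05 in any library.

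**Figure D1:**
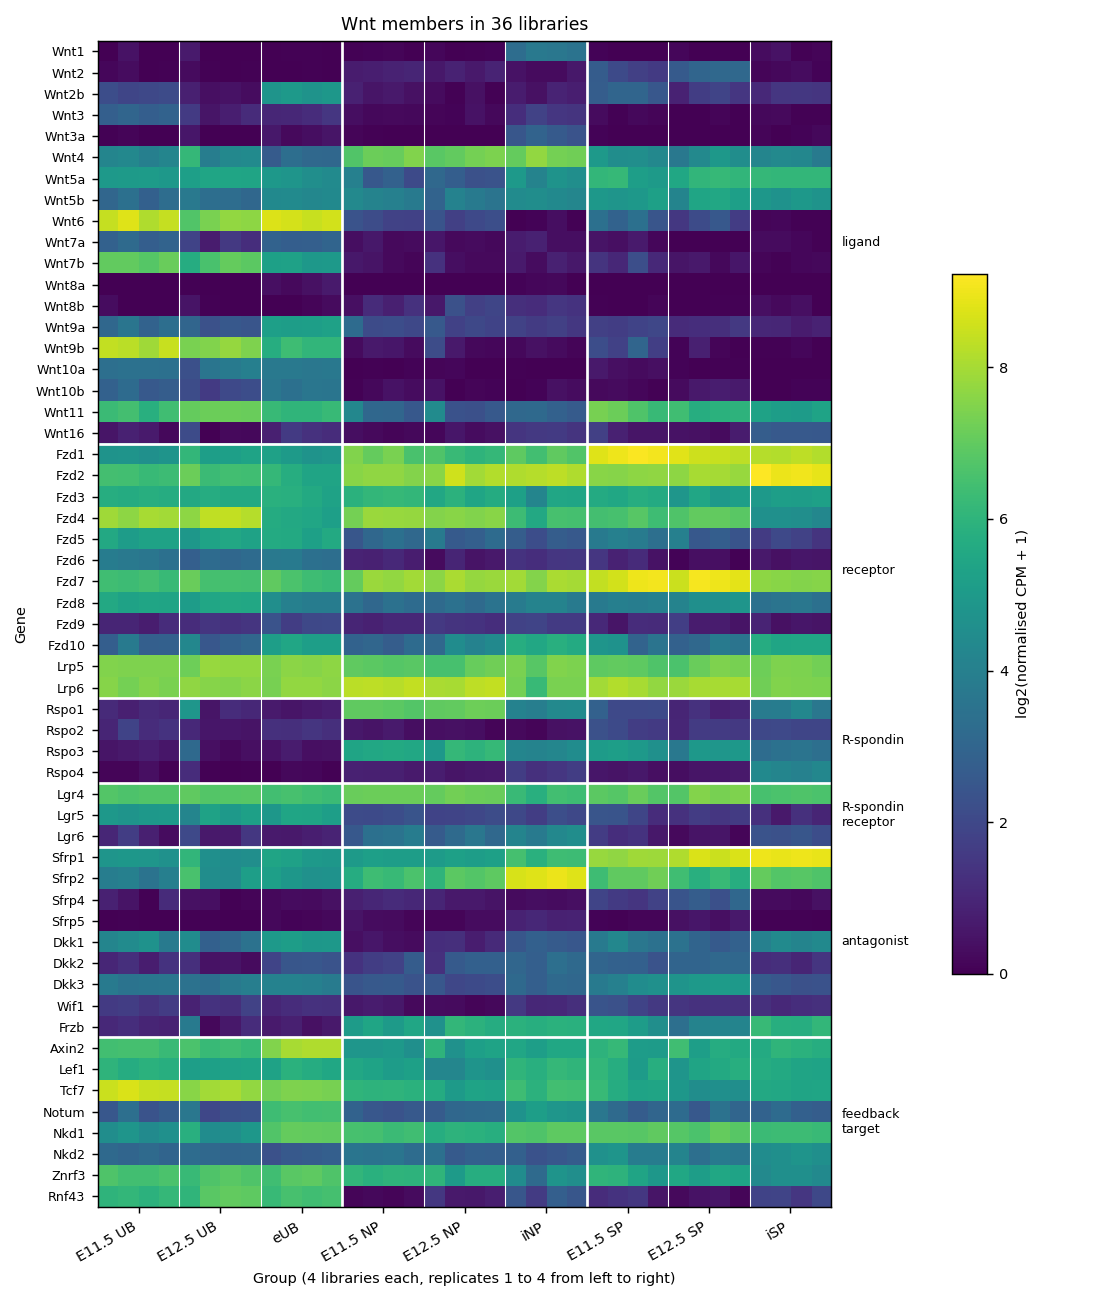
Levels of the 55 Wnt genes (rows, by role) in each of the 36 libraries (columns, 4 per group), as log2(normalised CPM + 1). Wnt6, Wnt7b, Wnt9b and Rnf43 are bright in the 3 bud groups, Wnt4 in the 3 NP groups, Wnt1 and Wnt3a in iNP alone and Rspo4 mainly in iSP, and the first E12.5 UB column departs from its 3 neighbours in Rspo1, Rspo3 and Frzb.

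**Figure D2:**
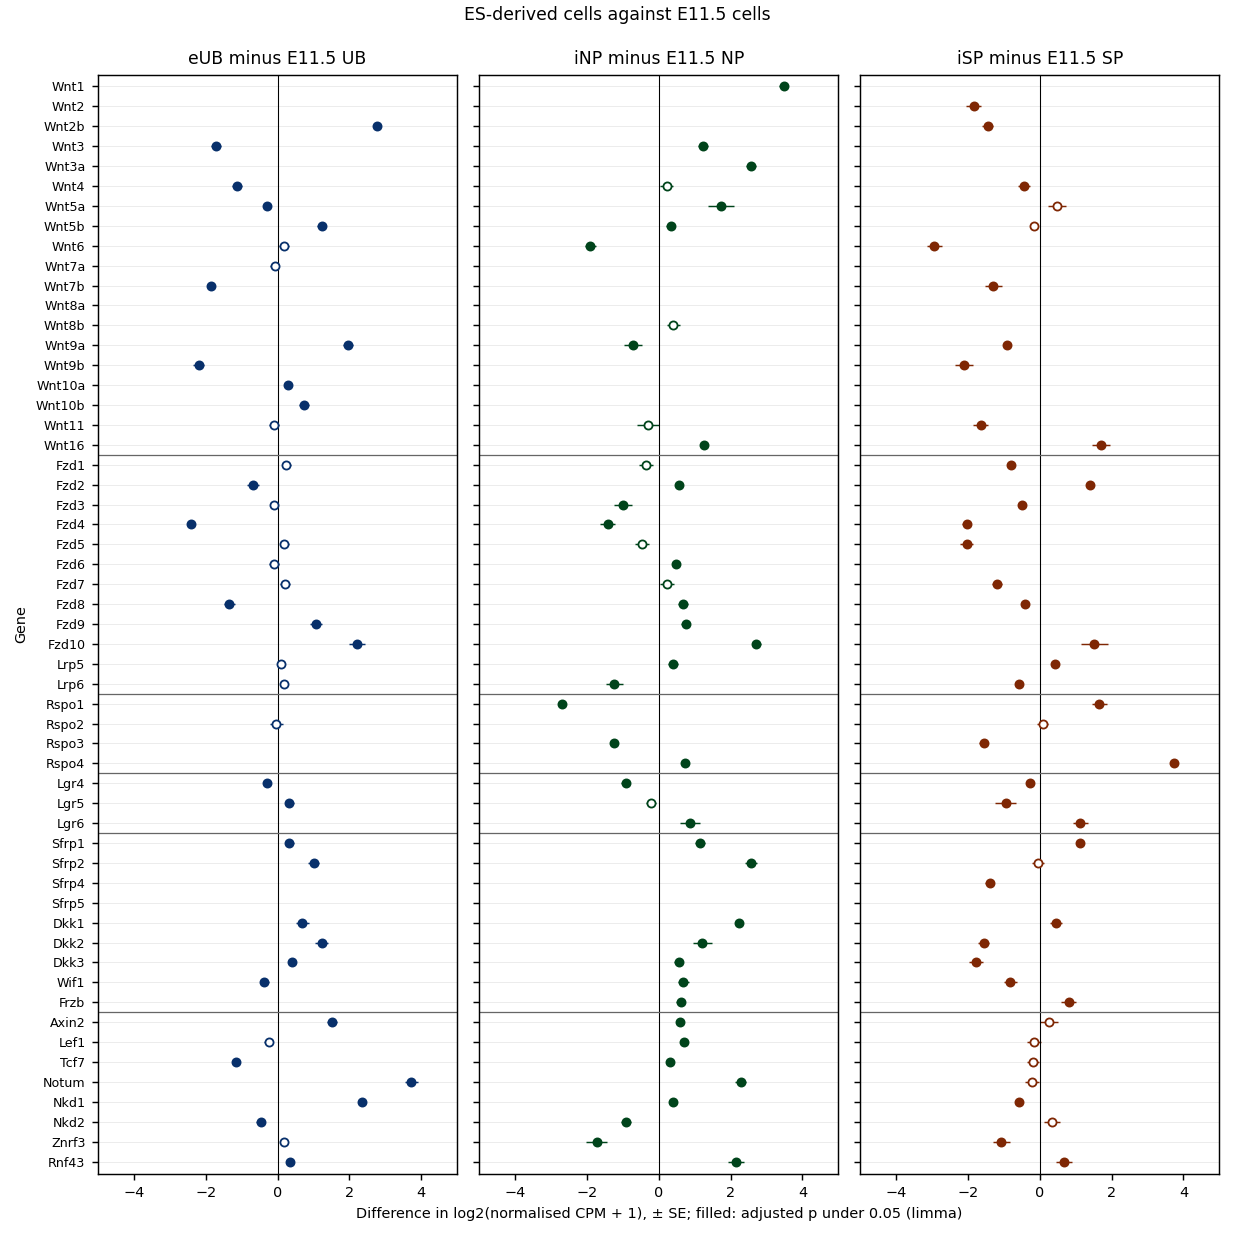
Difference of each ES-derived group from its E11.5 counterpart for the 55 Wnt genes (rows), on the log2(normalised CPM + 1) scale with SE bars; filled points passed an adjusted p of 0.05 and genes without a point were under the expression filter. Notum lies at 3.72 in UB, Wnt1 at 3.48 in NP and Rspo4 at 3.73 in SP, the farthest to the right in their panels.

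In the fetal kidney at E11.5 the leading ligand differed between the lineages. Per kilobase of transcript, which allows genes to be compared, Wnt6 was the highest of the 19 ligands in E11.5 UB (159 normalised CPM per kb), followed by Wnt9b (68.2) and Wnt7b (25.6). Wnt4 led in E11.5 NP (33.2 per kb) and Wnt11 in E11.5 SP (29.0 per kb), with Wnt5b next in both (5.96 and 11.5 per kb). Wnt11 was shared with the bud, where it ranked 4 in E11.5 UB (18.3 per kb). By the titles it was higher in E12.5 UB (33.3 per kb) than in E12.5 SP (15.5 per kb). Against NP and SP jointly, 39 of 48 Wnt genes differed in E11.5 UB (21 higher, 18 lower, against 56.4% of all genes, 26.9% higher and 29.5% lower). With any E11.5 UB library left out, genes that entered through E11.5 UB alone drop out, and 16 or 17 of 44 were higher. The largest differences were the bud ligands Wnt9b (6.96), Wnt7b (6.09) and Wnt6 (5.90) and the ubiquitin ligase Rnf43 (5.40) on the higher side, and the mesenchymal genes Rspo3 (-4.62), the Wnt-binding antagonist Frzb (-4.18) and Rspo1 (-3.57) on the lower side. Between the mesenchymes, 31 of 42 differed at E11.5 (43.1% of all genes, 21.0% higher in NP and 22.2% in SP), 8 higher in NP and 23 higher in SP. Without E11.5 SP replicate 2, 19 of the 35 then tested did, and 14 or 12 were higher in SP without E11.5 SP replicate 1 or 2. The genes that drop out had no E11.5 NP library at 1 normalised CPM. They entered through E11.5 SP alone, so their direction was fixed by the filter, and Dkk1 was among them. Rspo1 (4.65), Wnt4 (2.52), Lgr6 (2.14) and Fzd4 (1.13) were higher in NP by at least 1, whereas Wnt11 (-3.62), Dkk1 (-3.40), Wnt5a (-2.76) and Sfrp1 (-2.71) led the genes higher in SP. Wnt9b, Wnt7b and Wnt6 were also among the genes higher in E11.5 SP than in NP (-1.75, -1.06 and -1.002), and bud marker genes moved with them. The 8 genes of that list summed to 280.3 to 453 in E11.5 SP and 64.5 to 130.2 in E11.5 NP. Most of the SP sum was Sox9, which is not particular to the bud here (225 to 341 in E11.5 SP, 141 to 205 in E11.5 UB). The other 7 summed to 55.3 to 148 in E11.5 SP, 23.9 to 32.7 in E11.5 NP and 3583 to 3870 in E11.5 UB. The part of that bud RNA in these 3 differences was not tested.

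The ES-derived lineages were divided by the same ligands in UB and NP. Wnt6 led in eUB (178 per kb), Wnt4 in iNP (38.7 per kb) and Wnt5b in iSP (10.3 per kb), where Wnt5a (8.78) and Wnt11 (8.74) followed. Of 51 Wnt genes tested, 43 differed between eUB and the 2 ES-derived mesenchymes (24 higher, 19 lower, against 62.9% of all genes, 30.3% higher and 32.6% lower), with Wnt6 higher by 8.50 and Wnt9b by 5.91. Wnt6 and Wnt9b entered through eUB alone, with no iNP or iSP library at 1 normalised CPM, so their calls were fixed by the filter. With any eUB library left out such genes drop out, and 16 or 17 of the 45 then tested were higher. iNP and iSP differed in 35 of 45 (21 higher in iNP, 14 higher in iSP), 77.8% where 30.7% of all genes did (16.5% and 14.2%). With any iNP library left out 39 were tested, and 15 or 20 were higher in iNP. With any iSP library left out 43 were tested, and 10 or 11 were higher in iSP. The genes that drop out entered through iNP alone or iSP alone, so their direction was fixed by the filter. Wnt1 (3.31), Wnt4 (3.19), Wnt3a (2.50) and the antagonist Sfrp2 (1.97) led in iNP, and Rspo4 (-2.70), Sfrp1 (-2.69), Wnt11 (-2.27) and Nkd2 (-2.04) in iSP. No iSP library held Wnt1 or Wnt3a at 1 normalised CPM. Both entered through iNP alone, so for them this is a description.

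The start-site sequences of 4 of these genes are shown because they stand for the ligands and targets that the groups turn on. Wnt6 and Wnt11 are the leading ligands of E11.5 UB and E11.5 SP, and Axin2 and Lef1 are direct targets of β-catenin and TCF/LEF. Each run is the 250 bases before a RefSeq transcript start (GRCm38.p6), 5′ to 3′ on the gene's strand, with the core letters CTTTGA of the TCF/LEF motif, or TCAAAG where it lies on the other strand, in capitals.
Wnt6 (chr1:74771642-74771891, plus strand): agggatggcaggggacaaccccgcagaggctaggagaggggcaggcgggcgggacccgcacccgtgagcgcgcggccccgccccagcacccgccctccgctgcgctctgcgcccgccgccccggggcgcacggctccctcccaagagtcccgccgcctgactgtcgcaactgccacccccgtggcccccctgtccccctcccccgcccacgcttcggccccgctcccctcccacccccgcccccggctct
Lef1 (chr3:131156044-131156293, plus strand): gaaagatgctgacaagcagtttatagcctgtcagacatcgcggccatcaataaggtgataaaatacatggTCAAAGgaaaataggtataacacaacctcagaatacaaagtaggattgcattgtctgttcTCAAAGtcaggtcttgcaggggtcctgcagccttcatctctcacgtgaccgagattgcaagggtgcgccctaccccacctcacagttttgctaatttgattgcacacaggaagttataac
Wnt11 (chr7:98834862-98835111, plus strand): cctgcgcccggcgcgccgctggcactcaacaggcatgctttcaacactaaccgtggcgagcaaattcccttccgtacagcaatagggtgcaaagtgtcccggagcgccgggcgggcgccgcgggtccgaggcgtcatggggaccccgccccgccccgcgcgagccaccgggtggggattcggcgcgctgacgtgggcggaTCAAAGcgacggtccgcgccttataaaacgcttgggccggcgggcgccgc
Axin2 (chr11:108920099-108920348, plus strand): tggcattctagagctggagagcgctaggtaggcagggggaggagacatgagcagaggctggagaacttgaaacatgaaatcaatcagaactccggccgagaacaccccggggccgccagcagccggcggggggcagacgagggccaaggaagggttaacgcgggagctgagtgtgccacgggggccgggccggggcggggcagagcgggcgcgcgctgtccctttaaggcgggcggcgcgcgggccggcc
Lef1 carried the core 180 and 120 bases before this start, which lies inside the gene, downstream of 3 other annotated starts whose windows had none. Wnt11 carried it 50 bases before this start, and the window of its other annotated start, farther downstream, had none. The windows of Wnt6 and Axin2 had none. For a gene with several windows, only those with the core are shown. Over the 37 Wnt genes with a RefSeq window, 6 of 45 windows held the core on either strand (13.3%), and 13.8% of 32851 windows of all genes did. A match is a run of letters, not a bound site.

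Among bud ligands, eUB held less Wnt9b, Wnt7b and Wnt3 than E11.5 UB, while Wnt6 was not called. Wnt6 was at 431, 393, 353 and 387 in eUB and 341, 438, 276 and 342 in E11.5 UB, overlapping ranges (0.18 ± 0.13, adjusted p = 0.264; 0.0443 without E11.5 UB replicate 2). Wnt9b, the bud's inducer of the mesenchyme, was at 52.3, 82.3, 66.2 and 66.1 in the 4 eUB libraries and 335, 305, 242 and 349.8 in E11.5 UB. Every eUB library was below every fetal one, a difference of -2.19 ± 0.15 (adjusted p = 1.73e-06). Wnt7b, the stalk ligand, was likewise apart, at 37.1, 38.3, 29.6 and 30.5 in eUB against 127, 127, 111 and 138. It fell by 1.86 ± 0.08 on the log2 scale (adjusted p = 5.61e-07). Wnt3 stood at 0.965, 1.03, 1.25 and 1.74 in eUB and 5.88, 7.12, 5.82 and 6.51 in E11.5 UB, a separation of -1.72 ± 0.13 (adjusted p = 3.76e-06). Calb1, which the study calls stronger in stalk than tip, was at 31.9 to 46.9 in eUB and 518 to 686 in E11.5 UB. The 8 bud markers, Calb1 among them, summed to 2927 to 3163 and 3757 to 4064, and the pluripotency genes to 2.15 to 3.30 and 0.107 to 0.402. Their part in the eUB differences was not tested.

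3 other ligands were higher in eUB by at least 1. Wnt2b, which in the fetal kidney was highest in E11.5 SP (4.68 to 7.05), was at 26.3, 29.8, 25.6 and 28.2 in eUB and 3.49, 2.81, 2.98 and 3.34 in E11.5 UB. All eUB libraries lay above all 32 others, and the difference from E11.5 UB was 2.78 ± 0.097 (adjusted p = 3.48e-08). Wnt9a was at 35.8, 33.8, 34.999 and 37.8 in eUB against 7.49, 11.1, 6.53 and 9.103, again without overlap (1.96 ± 0.14 (adjusted p = 2.19e-06)). Wnt5b, a ligand mostly tied to β-catenin-independent signalling, was at 19.97, 20.5, 18.5 and 19.97 in eUB and 7.36, 9.53, 6.08 and 8.85 in E11.5 UB. It rose by 1.23 ± 0.13 (adjusted p = 2.57e-05), and the groups did not overlap. Called by the same test were also Wnt10b (0.73 ± 0.14), Wnt10a (0.29 ± 0.081), Wnt5a (-0.30 ± 0.11) and Wnt4 (-1.13 ± 0.15), while Wnt7a (-0.079 ± 0.12) and Wnt11 (-0.11 ± 0.13) were not.

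In iNP the leading fetal ligand overlapped its fetal range, and 2 ligands at or near 0 in the fetal groups were measured in every library. Wnt4 was at 132, 214, 155 and 148 in iNP against 104, 143, 135 and 176 in E11.5 NP, overlapping and not called (0.22 ± 0.18, adjusted p = 0.315). Wnt1, a canonical ligand known best from the midbrain and dorsal neural tube, was at 8.76, 12.3, 11.5 and 10.4 in iNP. In E11.5 NP it was at 0.039, 0.0671, 0.0853 and 0, that is at or under the level of 3 reads in all 4 libraries, and no library outside iNP exceeded 0.573. The difference was 3.48 ± 0.12, a size that depends on the pseudocount, and Wnt1 entered the test through iNP alone. Wnt3a, a canonical ligand of the tail bud and dorsal neural tube, was at 4.61, 6.66, 5.18 and 4.17 in iNP against 0.0779, 0.0336, 0 and 0 in E11.5 NP (2.57 ± 0.13), and at most 0.52 in any library of another group. Wnt3a too entered through iNP alone. Per kilobase Wnt1 ranked 3 of the 19 ligands in iNP. Of 5 neural marker genes, Sox1 moved with both ligands, at 5.57 to 6.35 in iNP, at most 0.0779 in E11.5 NP and 0.0676 to 0.179 in iSP, where Wnt1 was at 0.0369 to 0.358. Stmn2 was at 17.7 to 26.8 in iNP, 0.768 to 1.68 in E11.5 NP and 52.2 to 80.8 in iSP, and Elavl4 was lower in iNP (4.03 to 5.59) than in E11.5 NP (18.3 to 20.9). All 5 summed to 37.6 to 58.8 in iNP, 25.5 to 31.5 in E11.5 NP and 56.5 to 84.3 in iSP. Endothelial and muscle markers were also higher in iNP than in E11.5 NP. The 6 endothelial genes summed to 58.5 to 105 against 9.68 to 31.2 (Cldn5 13.9 to 39.02 against 0.376 to 2.03), and of 4 muscle genes Myog was at 6.10 to 10.7 against 0.101 to 0.429. The 4 pluripotency genes summed to 3.07 to 5.74 in iNP and at most 0.103 in E11.5 NP. The part of neural, endothelial, muscle or pluripotent cells in the iNP differences was not tested.

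Wnt5a, which acts mainly outside the β-catenin branch, was at 31.02, 16.4, 25.7 and 22.8 in iNP against 15.3, 4.77, 6.35 and 3.21 in E11.5 NP. The groups did not overlap, though the first fetal library came close (1.73 ± 0.37 (adjusted p = 0.00233)). Wnt16, at 1.65, 1.87, 1.99 and 1.64 in iNP against 0.273, 0.168, 0.0853 and 0.137 in E11.5 NP, was low in both and higher in culture (1.26 ± 0.10). Wnt3 rose by 1.23 ± 0.14 from a level of 0.134 to 0.273. Both entered the test through iNP alone. In the other direction Wnt6 was at 0, 0.0656, 0.264 and 0.0455 in iNP against 4.13, 3.42, 2.56 and 2.46 in E11.5 NP, which is -1.91 ± 0.15. Wnt6 entered the test through E11.5 NP alone, so this is a description. Replicate 1 of iNP had no Wnt6 read and replicates 2 and 4 were also under 3 reads. The 7 bud markers other than Sox9 summed to 89.7 to 90.3 in iNP and 23.9 to 32.7 in E11.5 NP, and their part in the Wnt6 difference was not tested.

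In iSP every ligand change of at least 1 in size was a fall, with Wnt16 the exception. Markers of other cells differed too: blood and macrophage genes summed to 0.101 to 0.483 in iSP and 4.40 to 111 in E11.5 SP, neural genes to 56.5 to 84.3 and 15.7 to 23.8, and pluripotency genes to 4.03 to 6.14 and 0.208 to 0.437, and their part in the iSP differences was not tested. Wnt11, the leading ligand of fetal SP, was at 39.1, 33.96, 32.1 and 39.4 in iSP and 161, 143, 101 and 74.5 in E11.5 SP. No iSP library reached a fetal one, and the difference was -1.65 ± 0.22 (adjusted p = 1.10e-04). Wnt2, a ligand of mesenchyme, was at 0.0966, 0.143, 0.222 and 0.0676 in iSP and 5.44, 3.21, 2.38 and 1.98 in E11.5 SP (-1.85 ± 0.22), and E12.5 SP was higher still at 5.09 to 7.66. Wnt2 entered the test through E11.5 SP alone. Wnt2b was at 1.11, 1.72, 1.81 and 1.69 against 5.57, 7.05, 6.99 and 4.68, without overlap (-1.45 ± 0.15 (adjusted p = 2.58e-05)). Wnt16 was at 5.56, 5.01, 4.99 and 4.798 in iSP and 2.34, 0.802, 0.437 and 0.442 in E11.5 SP, and rose by 1.69 ± 0.25 (adjusted p = 2.18e-04). Wnt5b did not pass (-0.15 ± 0.11), nor did Wnt5a (0.49 ± 0.25), which was called without E11.5 SP replicate 1 (0.65) or 2 (0.67) and with upper-quartile scaling (0.63), and Wnt4 fell by 0.45 on the log2 scale.

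The bud ligands were also lower in iSP than in E11.5 SP. Wnt6 was at 0.0966, 0.107, 0.0369 and 0.0338 in iSP and 9.58, 6.42, 9.73 and 4.34 in E11.5 SP (-2.94 ± 0.21), and Wnt9b was at 0.0483, 0.0358, 0.111 and 0 against 3.504, 2.43, 7.15 and 2.29 (-2.11 ± 0.26). Both entered the test through E11.5 SP alone, as did Wnt7b. Replicate 3 of E11.5 SP was the highest of its group for Wnt9b and for Wnt7b, which fell by 1.29 in iSP. The 7 bud markers other than Sox9 summed to 41.3 to 48.6 in iSP and 55.3 to 148 in E11.5 SP (122 to 137 and 280.3 to 453 with Sox9), and their part in these 3 falls was not tested.

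**Figure D3:**
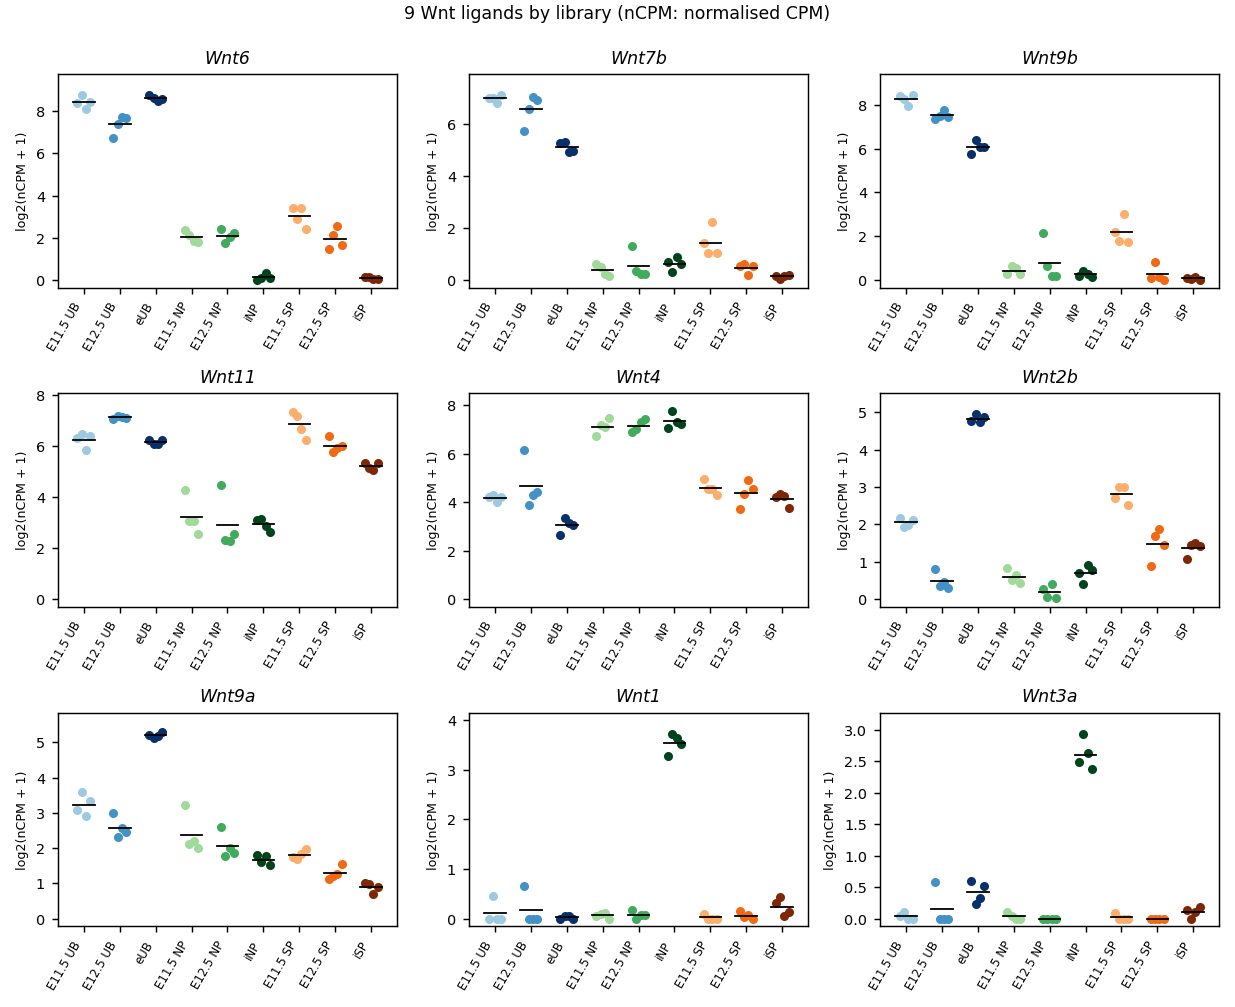
Levels of 9 Wnt ligands in each of the 36 libraries on the log2(normalised CPM + 1) scale; points are libraries, black lines group means, blue UB, green NP and orange SP, with the ES-derived group darkest. Wnt6 in eUB lies within the E11.5 UB range whereas Wnt9b and Wnt7b lie below it, and Wnt1 and Wnt3a stand above the other groups in iNP.

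The 19 ligand genes include 4 pairs of close neighbours on GRCm38, and members of a pair did not share a pattern throughout. Wnt9b (chromosome 11, 103727364-103749821, minus strand) and Wnt3 (103774150-103817957, plus strand) lie 24.3 kb apart. Both fell in eUB (-2.19 and -1.72), but in iNP Wnt3 rose while Wnt9b stayed under the filter (0.091 to 0.328). Wnt3a and Wnt9a (chromosome 11, 59248033-59290752, minus strand, and 59306928-59333552, plus strand) lie 16.2 kb apart. Wnt9a was highest in eUB and Wnt3a in iNP, where Wnt9a fell (-0.71). Wnt10b and Wnt1 (chromosome 15, 98770712-98778150, minus strand, and 98789857-98793837, plus strand) are separated by 11.7 kb. Wnt10b was at 9.72 to 11.7 in eUB and at most 0.669 in any NP or SP library, iNP (0 to 0.322), where Wnt1 was highest, among them. Wnt6 and Wnt10a (chromosome 1, 74771892-74785322 and 74791516-74804179, both plus strand), 6.19 kb apart, were both highest in the bud groups, with Wnt10a at 9.301 to 10.01 in E11.5 UB and 11.6 to 12.4 in eUB.

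Of the receptors, Fzd4 fell and Fzd10 rose in all 3 ES-derived groups. Fzd4, a Frizzled that also binds the non-Wnt ligand norrin, was at 49.8, 46.4, 42.8 and 35.6 in eUB and 243, 202, 259.8 and 244 in E11.5 UB. In iNP it was at 79.9, 46.9, 93.5 and 90.9 against 157, 226, 221 and 216 in E11.5 NP, and in iSP at 23.6, 23.6, 22.4 and 18.2 against 86.9, 91.5, 113 and 80.8 in E11.5 SP. None of the 3 pairs of groups overlapped, and the differences were -2.42 ± 0.12 (adjusted p = 1.82e-07) in UB, -1.42 ± 0.22 (adjusted p = 2.88e-04) in NP and -2.03 ± 0.12 (adjusted p = 1.04e-06) in SP. Fzd10 was at 35.3, 43.2, 35.04 and 34.9 in eUB and 5.68, 12.8, 6.01 and 6.08 in E11.5 UB, a rise of 2.21 ± 0.22 (adjusted p = 1.68e-05). It was at 52.7, 44.9, 55.9 and 48.8 in iNP against 6.39, 7.25, 5.63 and 8.27 in E11.5 NP (2.72 ± 0.13 (adjusted p = 2.01e-07)). In iSP it was at 51.1, 42.1, 43.4 and 42.9, above all 4 E11.5 SP libraries, which were themselves spread over 27.4, 25.2, 6.71 and 10.6 (1.51 ± 0.38 (adjusted p = 0.00541)). All 12 ES-derived libraries held more Fzd10 than any of the 24 fetal libraries.

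The other receptors moved by lineage. Fzd8 was at 22.5, 15.2, 13.6 and 13.7 in eUB and 46.4, 38.5, 42.4 and 41.4 in E11.5 UB, a fall without overlap (-1.35 ± 0.15 (adjusted p = 3.82e-05)), and rose in iNP by 0.67 ± 0.14. Fzd5 was at 2.03, 3.15, 2.51 and 1.62 in iSP and 12.6, 15.2, 13.2 and 9.44 in E11.5 SP (-2.04 ± 0.18 (adjusted p = 8.38e-06)), whereas eUB and E11.5 UB overlapped at 37.1 to 48.5 and 33.003 to 46.99 (0.19 ± 0.12). Fzd2 fell in eUB (-0.69 ± 0.16) and rose in iNP (0.57 ± 0.085) and iSP (1.41 ± 0.089), where it reached 475 to 599.97. Fzd7 and Fzd1, at 329.9 to 542 and 434 to 582 in E11.5 SP and higher there than in NP, fell in iSP (-1.19 ± 0.15 and -0.80 ± 0.098). The co-receptor Lrp6 fell in iNP (-1.23 ± 0.23), where replicate 2 was at 73.3 and the others at 155 or more, and in iSP (-0.58 ± 0.10). Lrp5 rose slightly in both (0.39 ± 0.14 and 0.43 ± 0.094). In eUB Lrp5 and Lrp6 were called only without eUB replicate 1 (0.17 and 0.26, against 0.10 ± 0.075 and 0.17 ± 0.10).

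Rspo1 and Rspo3 were lower in E11.5 UB than in the 2 E11.5 mesenchymes taken jointly, and both had their lowest group mean in eUB. At E12.5 the order did not hold throughout, as UB replicate 1 held Rspo1 at 27.8, above every E12.5 SP library. The Rspo1 call between E12.5 UB and the mesenchymes was lost with edgeR and without E12.5 UB replicate 2, 3 or 4. The nephron and stromal progenitors in culture changed in opposite directions for Rspo1. It was at 16.2, 14.5, 19.4 and 20.2 in iNP against 124, 126, 118 and 107 in E11.5 NP, a fall without overlap (-2.698 ± 0.12 (adjusted p = 1.32e-07)). In iSP it was at 13.5, 13.5, 18.3 and 11.6 against 6.24, 3.09, 3.14 and 3.17 in E11.5 SP, higher in every library (1.66 ± 0.21 (adjusted p = 8.52e-05)). The iNP difference minus the iSP difference was -4.36 ± 0.25 (adjusted p = 3.80e-09). Rspo1 was higher by 4.65 in E11.5 NP than in E11.5 SP, and between iNP and iSP, whose libraries overlapped, it was not called (0.29 ± 0.15).

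Rspo3 fell in both. It was at 17.3, 16.6, 17.8 and 21.2 in iNP against 40.5, 45.2, 47.8 and 45.5 in E11.5 NP (-1.25 ± 0.11 (adjusted p = 6.85e-06)), and at 8.65, 9.89, 10.8 and 9.43 in iSP and 32.6, 35.4, 31.03 and 23.98 in E11.5 SP (-1.56 ± 0.13 (adjusted p = 6.32e-06)). No pair of groups overlapped. Rspo4 was at 19.8, 17.3, 15.4 and 18.4 in iSP and 0.467, 0.389, 0.516 and 0.286 in E11.5 SP. The difference was the largest of the Wnt genes in SP, though Rspo4 entered the test through iSP alone (3.73 ± 0.11), and no library outside iSP exceeded 2.22, which was one of iNP. Rspo2 was low throughout, at most 3.87, and not called in UB or SP. Of the R-spondin receptors, Lgr4 was lower in all 3 cultured groups (-0.31 ± 0.07 in UB, -0.92 ± 0.13 in NP and -0.28 ± 0.094 in SP). Lgr5, a bud tip gene, rose in eUB by 0.32 ± 0.13 and fell in iSP (-0.95 ± 0.28), and Lgr6 rose in iNP (0.87 ± 0.27) and iSP (1.13 ± 0.20).

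Of the antagonists, 7 were tested in NP and all 7 were called and higher in iNP, where 35.5% of all genes were higher; Dkk1 and Wif1 entered that test through iNP alone. In UB 5 of the 6 tested were higher and 1 lower (32.1% and 28.5% of all genes), and in SP 3 of 8 were higher and 4 lower (35.5% and 32.1%). Sfrp2, a secreted Frizzled-related protein, was at 403, 443, 501 and 436 in iNP against 51.7, 81.99, 73.4 and 96.4 in E11.5 NP. The iNP libraries stood above the other 32 and the difference was 2.57 ± 0.17 (adjusted p = 1.62e-06), where eUB rose by 1.01 ± 0.15 and iSP did not differ by the test (-0.052 ± 0.17). Dkk1 was at 4.57, 6.07, 5.301 and 4.73 in iNP against 0.312, 0.47, 0.256 and 0.205 in E11.5 NP, without overlap (2.23 ± 0.12). It rose also in eUB (0.69 ± 0.18) and, by less, in iSP (0.45 ± 0.17). Sfrp1, an SFRP of fetal SP (208 to 241), rose to 481 to 512 in iSP (1.13 ± 0.074) and from 31.4 to 35.8 to 57.4 to 90.7 in iNP (1.14 ± 0.14).

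Dkk2 and Dkk3 moved against the other groups in iSP. Dkk2 was at 2.67, 4.54, 4.72 and 4.14 in eUB and 0.969, 1.37, 0.68 and 1.56 in E11.5 UB, higher in culture (1.22 ± 0.18 (adjusted p = 2.84e-04)). In iSP it was at 1.26, 1.36, 0.96 and 1.69 and in E11.5 SP at 7.04, 6.27, 6.16 and 4.16, lower in culture (-1.57 ± 0.16 (adjusted p = 2.25e-05)). The iNP libraries (5.97 to 9.402) lay above E11.5 NP (1.56 to 5.37), a rise of 1.21 ± 0.26. The rises in eUB and iNP each differed from the fall in iSP, by 2.79 ± 0.25 and 2.78 ± 0.32. Dkk3, a DKK family member that does not act as a typical LRP blocker, was at 5.51, 4.69, 3.84 and 3.95 in iSP against 12.7, 15.2, 21.7 and 23.8 in E11.5 SP (-1.78 ± 0.20 (adjusted p = 3.68e-05)). It was higher by 0.39 ± 0.10 in eUB and by 0.56 ± 0.12 in iNP. Frzb rose in iNP (0.61) and iSP (0.80), and Wif1 rose in iNP and fell in eUB and iSP.

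**Figure D4:**
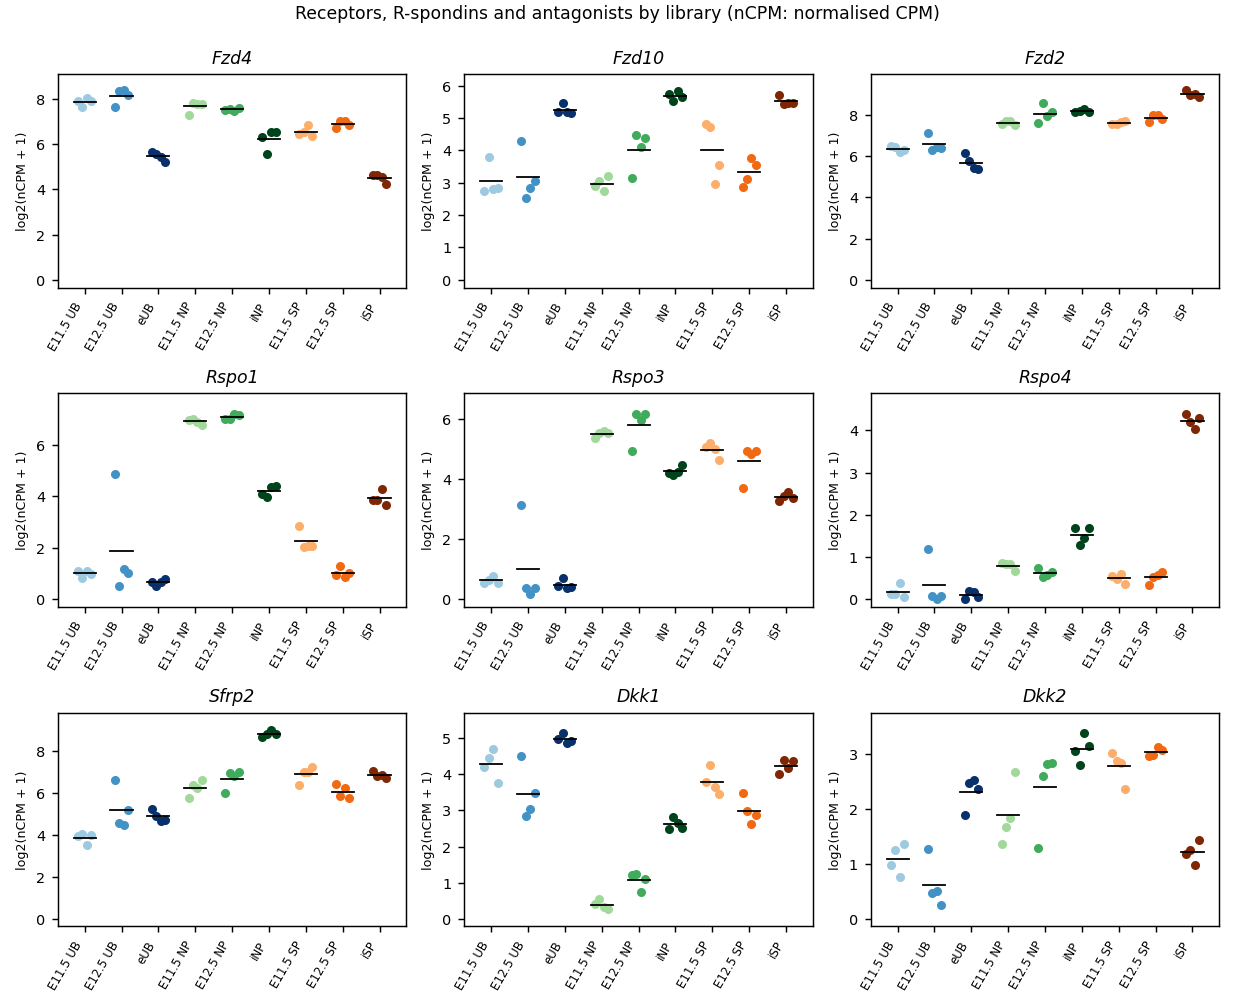
Levels of 3 Frizzleds, 3 R-spondins and 3 antagonists in each of the 36 libraries on the log2(normalised CPM + 1) scale, with group means as black lines and colours by lineage (blue UB, green NP, orange SP; ES-derived darkest). Fzd10 is high in the 3 ES-derived groups, Rspo1 is lower in iNP than in E11.5 NP and higher in iSP than in E11.5 SP, and 1 library of E12.5 UB sits apart in Rspo1 and Rspo3.

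The feedback targets, commonly read as reporters of β-catenin activity, moved in both directions in eUB (4 higher, 2 lower, 2 not called, against 32.1% higher and 28.5% lower of all genes). Notum, whose product strips the lipid from Wnts, was at 80.4, 92.4, 85.8 and 88.5 in eUB and 4.62, 9.29, 4.15 and 5.51 in E11.5 UB. The lowest eUB library was far above the highest fetal one, and the difference was the largest of any Wnt gene in UB (3.72 ± 0.19 (adjusted p = 2.82e-07)). Nkd1, an inhibitor that binds Dishevelled, was at 106, 131, 127 and 126 in eUB and 22.2, 27.1, 20.4 and 24.1 in E11.5 UB (2.34 ± 0.10 (adjusted p = 1.21e-07)). Axin2, the scaffold of the β-catenin destruction complex, was at 176, 259, 276 and 279 in eUB against 86.1, 90.2, 89.3 and 75.1 (1.51 ± 0.14 (adjusted p = 1.36e-05)). Replicate 1 of eUB was the lowest of its group and still above all fetal bud libraries. Tcf7, which encodes TCF1, went the other way, at 152, 172, 167 and 159 in eUB and 363, 415, 352 and 339 in E11.5 UB (-1.17 ± 0.08 (adjusted p = 1.78e-06)). Lef1 (-0.24 ± 0.12) and Znrf3 (0.17 ± 0.12) were not called (-0.33 without eUB replicate 2 and 0.28 without eUB replicate 1, both then called), Rnf43 rose by 0.36 ± 0.091 and Nkd2 fell (-0.48 ± 0.13).

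In iNP, 6 of the 8 targets were higher and 2 lower than in E11.5 NP (35.5% and 29.2% of all genes), Rnf43 having entered through iNP alone. Notum was at 25.3, 35.2, 28.1 and 25.8 in iNP against 6.51, 4.7004, 4.09 and 4.96 in E11.5 NP (2.29 ± 0.15 (adjusted p = 1.62e-06)). Rnf43 was at 4.57, 2.03, 5.89 and 4.55 in iNP against 0.0779, 0.134, 0.0853 and 0.205 in E11.5 NP (2.16 ± 0.22), still far under its level in the bud groups (60.02 to 70.2 in E11.5 UB). Its partner ligase Znrf3 fell, at 21.6, 8.07, 26.7 and 22.4 in iNP against 67.3, 57.4, 63.3 and 61.8 in E11.5 NP (-1.73 ± 0.30 (adjusted p = 6.49e-04)), with replicate 2 of iNP the lowest of all 36 libraries. The rises of Lef1 (0.70 ± 0.12), Axin2 (0.59 ± 0.12), Nkd1 (0.40 ± 0.097) and Tcf7 (0.31 ± 0.12) were smaller than 1, and Nkd2 fell by 0.91. In iSP 3 of 8 were called, where 67.6% of all genes were. Rnf43 rose (0.67 ± 0.21), and Nkd1 (-0.59 ± 0.069) and Znrf3 (-1.07 ± 0.24) fell. Axin2 (0.26 ± 0.25), Notum (-0.21 ± 0.20), Lef1 (-0.16 ± 0.20), Tcf7 (-0.20 ± 0.17) and Nkd2 (0.33 ± 0.22) did not pass, though Lef1 was called without E11.5 SP replicate 3 (-0.37) and Nkd2 without E11.5 SP replicate 2 (0.497). For Nkd1 the eUB rise and the iSP fall differed by 2.93 ± 0.12 (adjusted p = 4.40e-11), and the iNP rise and the iSP fall by 0.98 ± 0.11.

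**Figure D5:**
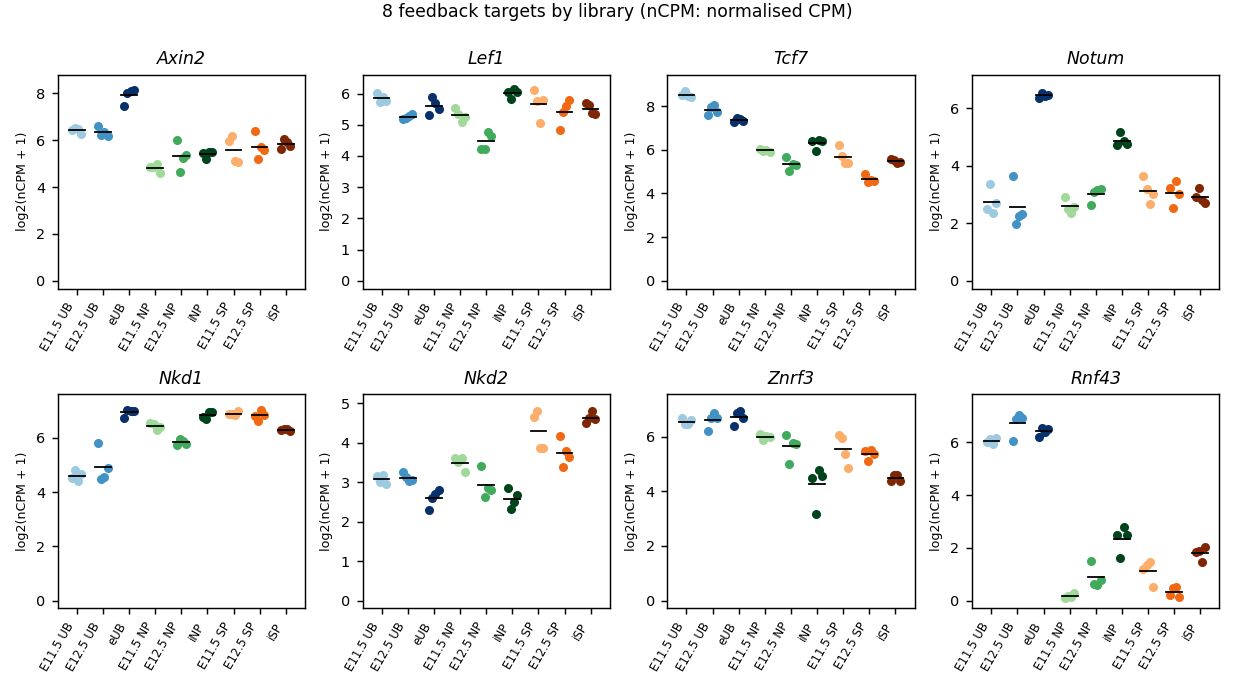
The 8 Wnt feedback targets in each of the 36 libraries on the log2(normalised CPM + 1) scale, with group means as black lines and colours by lineage (blue UB, green NP, orange SP; ES-derived darkest). Notum, Nkd1 and Axin2 are higher in eUB than in the fetal bud libraries, Tcf7 is lower, and iSP does not stand apart from E11.5 SP in Axin2, Notum, Lef1 or Tcf7.

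A list of 57 further genes of Wnt secretion, transduction and transcription was read alongside. In eUB 38 of 52 tested were called (14 higher, 24 lower), 73.1% against 60.5% of all genes. Sp5, a transcription factor gene that β-catenin switches on directly, was at 135, 155, 142 and 173 in eUB and 2.65, 4.66, 2.95 and 1.67 in E11.5 UB, a difference of 5.302 ± 0.20 (adjusted p = 4.40e-08). The Wnt5a receptor genes Ror2 (2.402 ± 0.12) and Ror1 (1.85 ± 0.10), the inhibitor Apcdd1 (2.04 ± 0.42) and the glypican Gpc4 (1.74 ± 0.15) came next. The DKK receptor Kremen2 (-1.51 ± 0.11), Daam1 (-1.43 ± 0.13), Celsr1 (-1.18 ± 0.17), Gpc3 (-1.17 ± 0.11) and Tcf7l2 (-1.06 ± 0.14) fell most. In iNP 35 of 50 were called (12 higher, 23 lower; 64.7% of all genes), with Ror1 (2.59 ± 0.29), the planar polarity gene Daam2 (2.16 ± 0.19), Ccnd1 (2.098 ± 0.11), the Wnt carrier Wls (2.07 ± 0.10) and Draxin (2.01 ± 0.21) highest, and Myc (-2.32 ± 0.13), Kremen2 (-2.12 ± 0.17), Tcf7l1 (-1.895 ± 0.14), Daam1 (-1.82 ± 0.21) and Tle2 (-1.497 ± 0.20) lowest. In iSP 27 of 48 were called (8 higher, 19 lower), 56.2% against 67.6% of all genes. Ror1 (1.35 ± 0.07) and the acyltransferase Porcn (0.90 ± 0.12) led the rises, and the co-repressor Tle4 (-2.51 ± 0.30), Gpc4 (-2.23 ± 0.23), Daam1 (-1.62 ± 0.081), Kremen2 (-1.503 ± 0.24) and Myc (-1.298 ± 0.081) the falls. Ror1 rose and Daam1 and Kremen2 fell in all 3 cultured groups. The gene for β-catenin, Ctnnb1, changed little, by -0.20 ± 0.08 in eUB, -0.42 ± 0.098 in iNP and -0.16 ± 0.13 in iSP, the last not called.

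The cultured groups were also set against E12.5 cells, in comparisons that share their ES-derived libraries with those above. eUB differed from E12.5 UB in 27 of 43 Wnt genes (16 higher, 11 lower, against 44.4% of all genes, 23.3% higher and 21.2% lower) and, without E12.5 UB replicate 1, in 28 of 42. Wnt2b (4.35 ± 0.14), Notum (3.899 ± 0.32) and Wnt9a (2.61 ± 0.15) were highest, Wnt2b having entered through eUB alone, and Fzd4 (-2.68 ± 0.17) lowest. Wnt6, not called against E11.5 UB, was higher than in E12.5 UB (1.23 ± 0.21), and Wnt11 was lower (-0.98 ± 0.072). iNP differed from E12.5 NP in 29 of 44 (22 higher, 7 lower, against 44.3% of all genes, 25.6% higher and 18.7% lower; 14 of 37 higher without iNP replicate 1, 3 or 4), with 7 of the 22 entering through iNP alone, Wnt1 and Wnt3a among them, and Wnt6 through E12.5 NP alone. It was led by Wnt1 (3.47 ± 0.13), Wnt3a (2.61 ± 0.14) and Rspo1 (-2.89 ± 0.14). iSP differed from E12.5 SP in 32 of 42 (14 higher, 18 lower, against 62.1% of all genes, 33.3% higher and 28.8% lower), led by Rspo4 (3.71 ± 0.12), Rspo1 (2.88 ± 0.16) and Wnt2 (-2.78 ± 0.14). Of these, 4 of the 14 higher (Lgr6, Rnf43, Rspo4 and Wnt16) entered through iSP alone and 3 of the 18 lower (Sfrp4, Wnt2 and Wnt6) through E12.5 SP alone.

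Between the fetal ages fewer Wnt genes differed. Of 44 Wnt genes, 15 differed between E12.5 and E11.5 UB (5 higher, 10 lower, against 26.5% of all genes, 14.2% higher and 12.3% lower), and 23 of 41 without E12.5 UB replicate 1 (11 higher, 12 lower). Wnt3 was at 1.96, 0.426, 0.731 and 1.21 in the libraries titled E12.5 UB, below every library of E11.5 UB given above (-1.87 ± 0.22 (adjusted p = 7.95e-04)). Wnt7a (-1.61 ± 0.24), Wnt2b (-1.57 ± 0.15) and Wnt6 (-1.06 ± 0.22) also fell, while Wnt11 rose from 77.8, 87.4, 55.5 and 82.8 to 133, 142, 140.3 and 137 (0.87 ± 0.13 (adjusted p = 0.00178)). If the cell source label holds, these directions turn round. In NP 4 of 35 differed (6.34% of all genes, 2.74% higher and 3.59% lower), all lower at E12.5 (1 higher and 3 lower after upper-quartile scaling), namely Fzd1 (-0.86 ± 0.21), Lef1 (-0.84 ± 0.16), Tcf7 (-0.63 ± 0.13) and Nkd1 (-0.60 ± 0.098). Without E12.5 NP replicate 1 the count was 12, with 7 higher and 5 lower, with all 36 libraries in 1 fit 7 (2 higher), and without E12.5 NP replicate 4 or E11.5 NP replicate 2 limma called 0, with 8 at an unadjusted p under 0.05 in either; edgeR on all 8 libraries called 4. In SP 12 of 41 differed (5 higher, 7 lower, against 8.52% of all genes, 3.73% higher and 4.80% lower), 20 without E12.5 SP replicate 1 and 3 without E12.5 SP replicate 4 or E11.5 SP replicate 2 or 3. Wnt2 (0.94 ± 0.24) and Sfrp4 (0.92 ± 0.21) were the largest rises, but both calls were lost without E12.5 SP replicate 2 or 4 or E11.5 SP replicate 2 or 3, when no Wnt gene was called higher. Wnt9b (-1.92 ± 0.30), Wnt2b (-1.33 ± 0.23) and Rspo1 (-1.22 ± 0.21) were the largest falls, beside a sum over the 7 bud markers other than Sox9 of 21.2 to 34.1 at E12.5 and 55.3 to 148 at E11.5. The part of bud RNA in the Wnt9b difference was not tested.

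The lineage pattern of E11.5 was found again at E12.5. Of 45 Wnt genes 36 differed between E12.5 UB and the 2 mesenchymes (20 higher, 16 lower, against 40.3% of all genes, 20.9% higher and 19.4% lower), with Wnt9b (7.003), Rnf43 (6.12), Wnt7b (6.06) and Wnt6 (5.35) at the head. With any E12.5 UB library left out, 16 of the 41 or 42 then tested were higher. Between E12.5 NP and SP 25 of 38 differed (10 higher in NP, 15 higher in SP, against 34.8% of all genes, 17.0% and 17.8%; 6 higher in NP without E12.5 NP replicate 4), and Rspo1, at 126, 128, 146 and 142 in NP and 0.921, 1.47, 0.813 and 1.01 in SP, was again the farthest apart (6.06 ± 0.14 (adjusted p = 6.86e-08)). That fit used no pairing, and with the replicate block 29 of 38 were called. With any E12.5 SP library left out, 12 of the 35 then tested were higher in SP. Of the 53 Wnt genes with a group mean of at least 1, 18 (34.0%) had a top group whose lowest library exceeded every library of the other 8 groups, as did 16.5% of 16131 genes. They were Wnt9a, Axin2, Wnt10b, Dkk1, Wnt2b and Notum in eUB, Wnt3a, Wnt1 and Sfrp2 in iNP, Wnt16, Sfrp1, Rspo4 and Fzd2 in iSP, Wnt3, Tcf7 and Wnt9b in E11.5 UB, and Sfrp4 and Dkk3 in E12.5 SP. None had E11.5 NP, E12.5 NP, E11.5 SP or E12.5 UB as such a group.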

How the data were processed

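RNA from sorted cells was made into stranded mRNA libraries and sequenced as read pairs by the authors. Per the labels and the study's methods, reads were trimmed with cutadapt and aligned with STAR. The methods name GRCh38, a human build, but the deposited gene identifiers are mouse Ensembl ones. The counting program is not given in the sources used here. The deposited signal values are read counts scaled to library size (CPM) and corrected by the authors with edgeR factors, called normalised CPM here. All values came out as whole reads (tolerance 0.01 read) once divided by the value of 1 read.

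A gene entered a comparison when 4 or more of its libraries reached 1 normalised CPM. The test was limma's moderated one (version 3.58.1 in R 4.3.3, lmFit and eBayes, trend on) after adding 1 and taking log2, with Benjamini-Hochberg adjustment over all genes tested and a threshold of 0.05. A step of the same kind tested whether 2 cell types' differences differed, for members called in opposite directions. Alternatives included edgeR 4.0.16 on the recovered reads. The members, the gene lists and the tests were chosen with earlier results of these data known. Members with a called difference of at least 1 from E11.5 cells, up to 14 per comparison, are given library by library, and a few others for contrast. Replicates are separate pools or batches, and p-values measure the spread between them. Correlating the deviations of same-numbered libraries gave 0.543 to 0.700 for E12.5 NP and SP, which thus look paired. Numbers in the labels did not pair the other groups. The main fits used no pairing for any groups, and a replicate block was run as an alternative. Gene positions are from GENCODE vM21 on GRCm38, which may not be the release the authors counted on. Strand use in counting is not given, so overlapping genes are not separated. Protein sequences were not used here.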

Additional observations from a re-analysis of the deposited data

Results flagged for a closer look

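Some Wnt genes were called in opposite directions in 2 of the 3 lineages when ES-derived cells were set against E11.5 cells, and for these the difference between the 2 differences was tested in 1 limma fit with a Benjamini-Hochberg adjustment over all genes. All 20 such cases passed an adjusted p of 0.05, which the choice of genes called in opposite directions nearly fixes. For eUB against iNP, the first difference minus the second was Wnt3 (-2.94 ± 0.19), Wnt9a (2.67 ± 0.30), Wnt5a (-2.04 ± 0.42), Fzd8 (-2.02 ± 0.21), Tcf7 (-1.48 ± 0.14), Fzd2 (-1.26 ± 0.19) and Wif1 (-1.06 ± 0.19), with a highest adjusted p of 0.000778. For eUB against iSP, the first difference minus the second was Wnt2b (4.22 ± 0.18), Nkd1 (2.93 ± 0.12), Wnt9a (2.87 ± 0.19), Dkk2 (2.79 ± 0.25), Dkk3 (2.17 ± 0.23), Fzd2 (-2.09 ± 0.19) and Lgr5 (1.28 ± 0.33), with a highest adjusted p of 0.00446. For iNP against iSP, the first difference minus the second was Rspo1 (-4.36 ± 0.25), Dkk2 (2.78 ± 0.32), Dkk3 (2.35 ± 0.24), Wif1 (1.503 ± 0.25), Fzd8 (1.09 ± 0.17) and Nkd1 (0.98 ± 0.11), with a highest adjusted p of 1.91e-04. Wnt2b, Wnt9a, Nkd1 and Dkk2 thus rose in eUB where they fell in iSP, and Wnt3, Fzd8, Wnt5a and Tcf7 fell in eUB where they rose in iNP. Wnt3 and Wif1 entered the iNP comparison through iNP alone, so for them this is a description. The comparisons that share eUB, iNP or iSP libraries are not independent of each other.

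Of the 93 sets of 4 libraries printed above, 5 had 1 library whose gap to the nearest other exceeded Dixon's 95% critical share of the whole range, and chance alone does this in about 1 of 20 sets. They were Fzd4 in E11.5 NP replicate 1 (157, the lowest), Fzd10 in E11.5 UB replicate 2 (12.8, the highest), Fzd10 in eUB replicate 2 (43.2, the highest), Fzd10 in iSP replicate 1 (51.1, the highest) and Rspo1 in E11.5 SP replicate 1 (6.24, the highest). Each Fzd10 library lay on the same side of the groups it was compared with as its 3 fellows. Over all Wnt genes 48 of 486 such sets did, some of them sets of 0 to a few reads, to which that rate does not apply. Over the 55 genes E12.5 UB replicate 1 was such a library for 17, more than any other.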

How the results depend on the processing

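The counts of Wnt genes called in the 3 comparisons with E11.5 cells ranged from 24 to 32 in eUB (29 as reported), 25 to 38 in iNP (37) and 28 to 35 in iSP (35) over the alternatives tried: 1 fit over all 36 libraries, a replicate block, a pseudocount of 0.1, no filter, a filter at 2, upper-quartile scaling, edgeR on the recovered reads and each library left out. Of the genes still tested, those that lost their call under some alternative were Lgr5, Sfrp1, Wif1, Wnt5a, Rnf43 and Wnt10a in eUB, Frzb, Lgr6, Lrp5, Tcf7, Wnt5b and Wnt9a in iNP, and Dkk1, Frzb, Lgr4, Rnf43 and Wnt4 in iSP, none of them over 1 in size. Others fell under the filter and so out of the count: 8 in iNP with any iNP library left out and 5 in iSP with any E11.5 SP library left out, Wnt6 in iNP with any E11.5 NP library and Rspo4 in iSP with any iSP library left out, all genes named above as entering through 1 group, and with the filter at 2, 1 in eUB, 6 in iNP (Wnt3 and Wnt16 of at least 1 in size) and 6 in iSP (Wnt2, Sfrp4 and Wnt7b). Of the genes tested in the main fits, calls were gained under some alternative by Wnt6 (0.29 without E11.5 UB replicate 2), Fzd1, Lef1, Lrp5, Lrp6, Wnt11 and Znrf3 in eUB, each with 1 library left out, by Fzd1, Fzd5 and Wnt8b in iNP and by Lef1, Nkd2 and Wnt5a in iSP. With no filter, genes not tested before were also called, and these are not listed. Of the 20 differences between lineages, the 2 of Wif1 were under the filter at 2, and the other 18 kept sign and call.

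The comparisons of the 2 ages were the least stable. With all 36 libraries in 1 fit, 7 Wnt genes differed between E12.5 and E11.5 NP (4 alone) and 19 between E12.5 and E11.5 SP (12 alone), and with the replicate block 7 did in SP (1 higher, against 5). Leaving out 1 library gave 0 to 12 in NP, 3 to 20 in SP and 11 to 23 in UB (15 with all; 3 to 11 higher at E12.5), and 19 to 28 for E11.5 NP against SP (31 with all), where fewer genes pass the filter with 1 SP library fewer. The NP count moved by over 1.5 times without any of E12.5 NP replicates 1, 3 and 4 and of the E11.5 NP libraries, and the SP count without any E12.5 SP library or E11.5 SP replicates 1, 2 or 3. Of the calls between ages, 7 of 15 in UB, 4 of 4 in NP and 10 of 12 in SP were lost under some alternative while the gene was still tested. The cause was not tested. Between E12.5 NP and SP, the groups that look paired, the replicate block raised the count from 25, called without pairing, to 29. Elsewhere the numbers are only shared; for E12.5 and E11.5 SP none of 4 libraries correlated best with its own number.

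Signs turned for Wnt2b between E11.5 UB and the mesenchymes when UB ages followed the cell source label (-1.23, from 0.35), and for 6 differences that were not called: Fzd3 in eUB (-0.16 to 0.016 over the libraries left out), Wnt7a in eUB (-0.14 to 0.0063), Rspo2 in eUB (-0.16 to 0.14), Wnt11 in iNP (-0.52 to 0.048), Rspo2 in iSP (-0.035 to 0.21) and Sfrp2 in iSP (-0.23 to 0.065, and 0.090 with upper-quartile scaling). Upper-quartile scaling shifted the median of all genes by 0.17 in iNP and 0.13 in iSP against E11.5 cells. At this depth 3 reads set the floor, so no fold is given for Wnt1, Wnt3a or Wnt6 in groups at or under it, only log2(value + 1) differences.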
